A study of Mus musculus with 4 samples.

Results

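The genes described here are the cadherins and the non-clustered protocadherins of the mouse. They were taken from the count matrices by name: every symbol in which Cdh or Pcdh is followed directly by a digit was a member, and names of opposite-strand transcripts and pseudogenes were left out. The rule found 35 members among 32285 listed genes, 23 of them Cdh genes and 12 Pcdh genes. Nuclei came from the cortex of wild-type C57BL/6J mice aged PND 90 (postnatal day). From PND 22 the animals received risperidone, an antipsychotic that blocks dopamine and serotonin receptors, at 4 mg/kg intraperitoneally, or saline, on 21 consecutive days, and were then left untreated. The right hemispheres of 5 male and 5 female mice per condition were combined into 1 pool, and DAPI-stained nuclei were sorted and loaded on 2 Chromium lanes per pool, so that the 2 lanes of a condition are technical replicates. Treatment, pool and dissection cannot be told apart, no p-value can be given, and every interval below covers counting error only.

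Cadherins are single-pass adhesion proteins of the cell surface that bind cadherins on the neighbouring cell in the presence of calcium. Classical type I and type II cadherins are joined to actin inside the cell through beta-catenin, delta-catenins and alpha-catenins. Protocadherins share the extracellular repeats but use other intracellular partners. In the cortex both groups are known for sorting neurons into layers and areas and for holding synapses together, and single neuron types carry different combinations of them.

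The 4 lanes held 23283 to 29981 nuclei after filters on genes and mitochondrial UMIs, 108493 in all, and 119736937 to 203675013 UMIs (unique molecular identifiers, each counting 1 captured RNA molecule). The median nucleus had 3297 and 4049 UMIs in saline, against 5648 and 7766 in risperidone, and the deposited nuclei began at 1364 and 1630 UMIs in saline but at 500 UMIs in both risperidone lanes. Between 160 and 221 cell barcodes were shared by any pair of lanes. Nuclei were placed in 20 classes by the UMIs of marker genes alone, and no member was a marker. Each class is a population that resembles the cell type whose markers it carries, and it is called by that name for short. The labelled cortex carried its defining markers, with 52727 glutamatergic and 9476 GABAergic nuclei. These broad sets include nuclei placed in no finer class, since the 8 layer types held 35151 nuclei and the 4 interneuron classes 7324. In addition, 1969 nuclei of striatal-type spiny projection neurons were present. The saline pool gave 730 and 669 of these per lane, against 300 and 270 for the risperidone pool. Nuclei called male made up 197 and 178 of them in saline and 5 and 15 in risperidone. In 1 layer type only 2 of 6 markers were raised, so it is called the Il1rapl2- and Deptor-high glutamatergic type. Signs of RNA quality and markers of other cells moved with the condition. Mitochondrial genes gave 0.041% and 0.039% of UMIs in saline against 0.019% and 0.016% in risperidone, and the nuclear RNA Malat1 gave 2.11% and 2.12% against 3.41% and 3.26%. Measured from broad neuronal markers, RNA of other cells made up 19.1% and 19.5% of the glutamatergic UMIs in the saline lanes against 12.2% and 11.0% in the risperidone lanes. In astrocytes it made up 36.1% and 32.8% against 19.7% and 21.4%. These shares are medians over 8 markers in glutamatergic neurons and 7 in astrocytes. Single markers in glutamatergic neurons gave 10.9% to 38.8% in saline 1 and 5.02% to 33.2% in risperidone 2. Xist, which is transcribed in female cells, stood at 292 and 294 counts per 1000000 UMIs (CPM) in saline and at 431 and 424 CPM in risperidone. Y-linked genes stood at 120 and 121 CPM in saline and at 108 and 106 CPM in risperidone.

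The promoters of 3 members are shown first, because the later results return to these genes. By the rule given below, Cdh22 was lower in risperidone in 8 of 13 neuronal classes. Pcdh17 was higher in 3 of them and Pcdh10 in 2. Cdh4 and Cdh13 were lower in 10 and 8 but had no promoter entry. Sequences are from RefSeq on GRCm38.p6, read 5′ to 3′ on the gene's strand and ending at the base before the annotated start. Capitals mark a GC box (GGGCGG, or CCGCCC on the other strand), a CCAAT box (CCAAT or ATTGG) and the core of the CRE, which CREB-type factors bind (TGACG or CGTCA).
Cdh22 (chr2:165234854-165234987, minus strand): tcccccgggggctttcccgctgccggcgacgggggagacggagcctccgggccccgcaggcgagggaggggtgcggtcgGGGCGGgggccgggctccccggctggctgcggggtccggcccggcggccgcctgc
Pcdh10 (chr3:45378248-45378397, plus strand): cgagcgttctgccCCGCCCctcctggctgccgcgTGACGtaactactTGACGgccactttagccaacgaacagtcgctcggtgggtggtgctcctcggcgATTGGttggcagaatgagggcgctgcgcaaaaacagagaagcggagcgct
Pcdh17 (chr14:84443413-84443562, plus strand): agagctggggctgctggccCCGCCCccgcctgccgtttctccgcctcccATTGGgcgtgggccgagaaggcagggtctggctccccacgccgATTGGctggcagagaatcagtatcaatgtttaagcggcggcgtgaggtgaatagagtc
The Cdh22 window held 1 GC box and no other motif of the search. The Pcdh10 window held 1 GC box, 1 CCAAT box and 2 CRE cores, and the Pcdh17 window held 1 GC box and 2 CCAAT boxes. No TATA box (TATAAA or TTTATA) was found in these 3 windows. In the 250 bases before the start, a GC box was present in 32.7% of 32851 RefSeq promoters, a CCAAT box in 33.8%, a CRE core in 17.8% and a TATA box in 12.4%. Of the 22 members with an entry, 9 held a GC box, 14 a CCAAT box, 3 a CRE core and 2 a TATA box. A match describes letters only and was not tested as a binding site.

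A member counted as measured in a class when its UMIs reached 10 CPM of that class. By this rule 29 members were measured in at least 1 of the 20 classes, and 22 of them in at least 1 of the 8 glutamatergic layer types. All 13 type II cadherins, all 4 delta-1 protocadherins and both tip-link genes were measured, as were 4 of 5 type I cadherins and 4 of 5 delta-2 protocadherins. The 6 members under the minimum everywhere were Pcdh8, with 939 UMIs in all nuclei, and Cdh15, Cdh26, Pcdh12, Cdh17 and Cdh16, with 60, 31, 23, 21 and 19 UMIs. Cdh15 is known from muscle, Cdh16 from kidney, Cdh17 from intestine and Pcdh12 from endothelium. Among the measured members, 17 had their highest level in a non-neuronal class and 12 in a neuronal one, 7 of these in a layer type. Sst interneurons and astrocytes were the highest class of 4 members each.

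Levels of different genes can be compared only per kilobase (kb) of gene, since introns are counted in nuclei. Over all nuclei, and per kb of genomic span, Pcdh9 was highest at 7.09 CPM per kb, followed by Pcdh7 at 3.40, Cdh11 at 2.40 and Cdh10 at 2.39 CPM per kb. Many members lie close to one another. On GRCm38, Cdh6, Cdh9, Cdh10, Cdh12 and Cdh18 lie on chromosome 15 between bases 13028701 and 23474418. Cdh20, Cdh7 and Cdh19 are neighbours on chromosome 1 between 104768529 and 110977584, and Pcdh11x and Pcdh19 are on the X chromosome. Neighbours did not all share a highest class. On chromosome 15, Cdh6 and Cdh12 were highest in layer 4/5 neurons, Cdh18 in layer 6b, Cdh9 in Sst interneurons and Cdh10 in astrocytes.

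**Figure D1:**
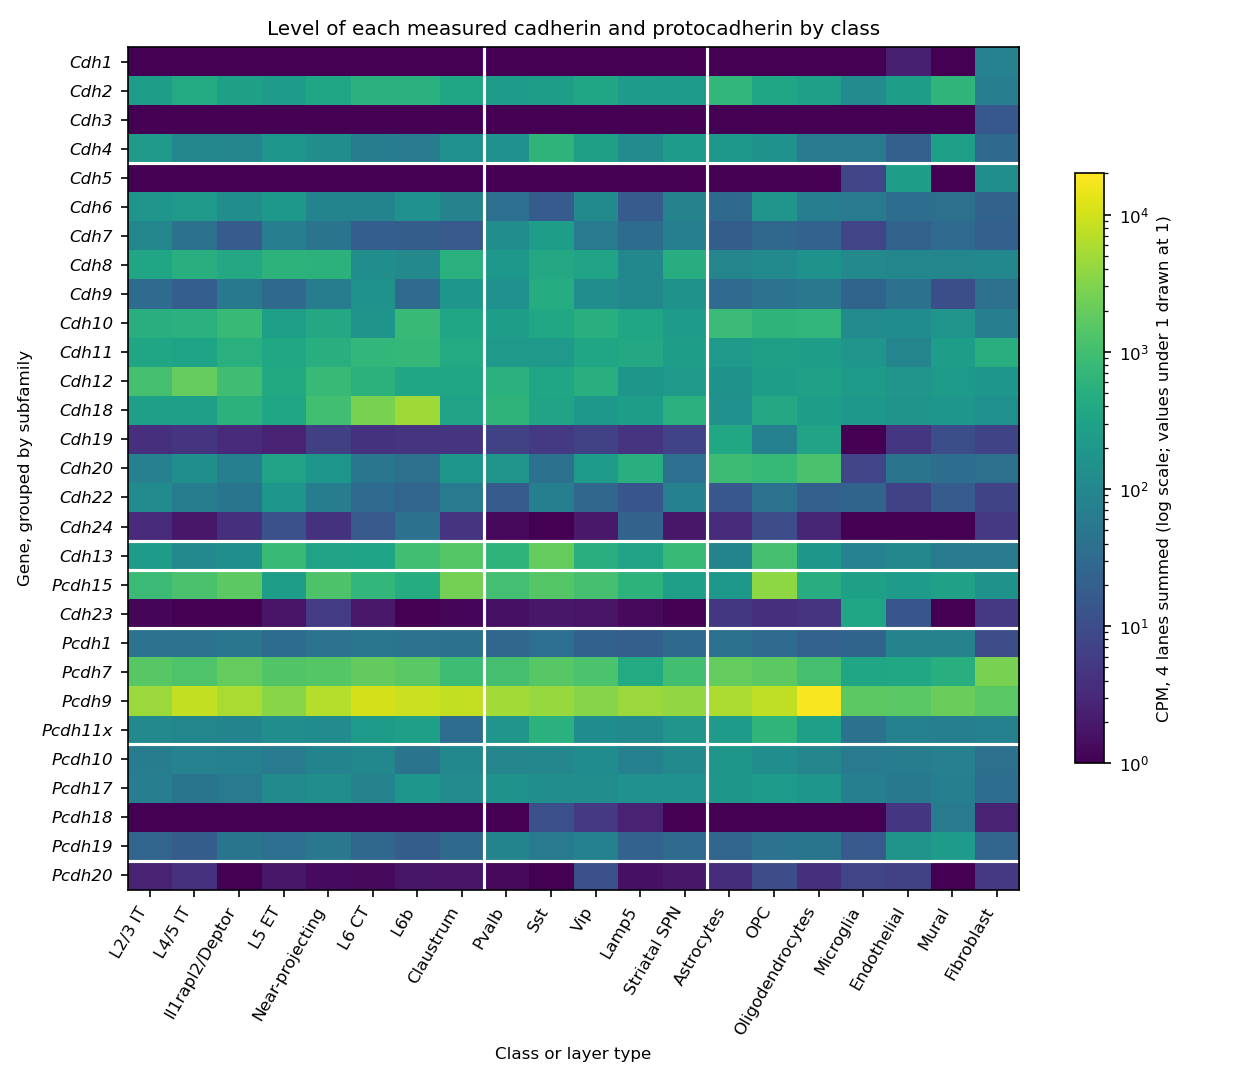
Level of the 29 measured members (rows, grouped by subfamily) in 20 cell classes (columns), in CPM of the class over 4 lanes on a log colour scale. White vertical lines separate glutamatergic classes, GABAergic classes with spiny projection neurons, and non-neuronal classes. Pcdh9 reaches 18262 CPM in oligodendrocytes, whereas Cdh19, Cdh23 and Cdh5 are dark outside non-neuronal classes.

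Cdh18, a type II cadherin, marked the deepest layers. Its level in layer 6b was 4171 and 4281 CPM in saline and 5148 and 5470 CPM in risperidone. Layer 6 corticothalamic neurons followed at 2619, 2690, 2833 and 2905 CPM, and near-projecting neurons at 1009 CPM (lanes 893 to 1103). These 3 levels did not overlap between lanes, nor did the next, 579 CPM in the Il1rapl2- and Deptor-high type. The other 4 layer types lay between 266 and 354 CPM with overlapping lanes, and the highest level was 18.6-fold the lowest. Cdh11 followed the same 2 types, at 746 CPM in layer 6b and 695 CPM in layer 6 corticothalamic neurons, whose lanes overlapped. Cdh2, the N-cadherin of synapses and progenitor junctions, was also highest among layer types there, at 563 and 551 CPM with overlapping lanes. Cdh24, a little-studied type II cadherin, reached 41.7 CPM in layer 6b (lanes 27.2 to 56.6, 242 UMIs) and 15.8 CPM in layer 6 corticothalamic neurons, and its 22.0-fold range was the widest of the 22 members measured in a layer type.

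Cdh12 had its highest level of any class in layer 4/5 neurons. It stood at 1677 and 1704 CPM in saline and at 2011 and 2006 CPM in risperidone. Layer 2/3 neurons came next at 1078 CPM (lanes 986 to 1130), apart from layer 4/5, while the Il1rapl2- and Deptor-high type at 975 CPM overlapped with layer 2/3. Claustrum-type neurons and layer 6b were lowest, at 335 and 340 CPM. Cdh6 was also highest in layer 4/5, at 216 CPM, but its lanes overlapped with those of layer 5 extratelencephalic neurons at 200 CPM. Cdh18 and Cdh12 are thus neighbours on chromosome 15 that differed across layers: layer 4/5 was the highest type for Cdh12 and the lowest for Cdh18.

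Layer 5 extratelencephalic neurons, which project below the cortex, had the highest layer level of Cdh20 at 304 CPM (lanes 245 to 327). It was apart from claustrum-type neurons at 181 CPM, and layer 6b was lowest at 38.2 CPM. Cdh22 was highest in the same neurons at 181 CPM, with lanes of 234, 235, 152 and 147 CPM that overlapped with layer 2/3 at 120 CPM. Cdh8, known from thermosensory and corticostriatal circuits, reached 600 CPM there and 592 CPM in near-projecting neurons, with overlapping lanes, and 106 CPM in layer 6b. Extratelencephalic neurons were at the same time the lowest layer type for Pcdh9 at 3436 CPM, for Pcdh15 at 248 CPM and for Cdh2 at 230 CPM, although Cdh2 overlapped with layer 2/3.

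Claustrum-type neurons led for Pcdh15 and Cdh9. Pcdh15, which pairs with Cdh23 in the tip links of hair cells, reached 2560 CPM there (lanes 2273 to 2946), then 1661 CPM in the Il1rapl2- and Deptor-high type and 1249 CPM in near-projecting neurons. Each was apart from the next, down to 248 CPM in extratelencephalic neurons, except that near-projecting and layer 4/5 neurons overlapped. Cdh9, known from hippocampal mossy fibre synapses, stood at 179 CPM in claustrum-type and 157 CPM in layer 6 corticothalamic neurons, whose lanes overlapped, against 19.0 to 65.4 CPM in the other 6 types. Cdh13, or T-cadherin, is held in the membrane by a lipid anchor and has no intracellular part. It reached 1446 CPM in claustrum-type neurons, 1012 CPM in layer 6b and 788 CPM in extratelencephalic neurons, neighbours whose lanes overlapped, and 104 CPM in layer 4/5. Claustrum-type neurons had the lowest layer level of Pcdh11x, at 33.9 CPM (lanes 30.9 to 36.2), apart from every other type, and layer 6b the highest at 266 CPM. In all, 12 members differed more than 5-fold between the highest and the lowest layer type. Pcdh1 was the only member under 2-fold, at 1.51-fold between 49.7 and 33.0 CPM.

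**Figure D2:**
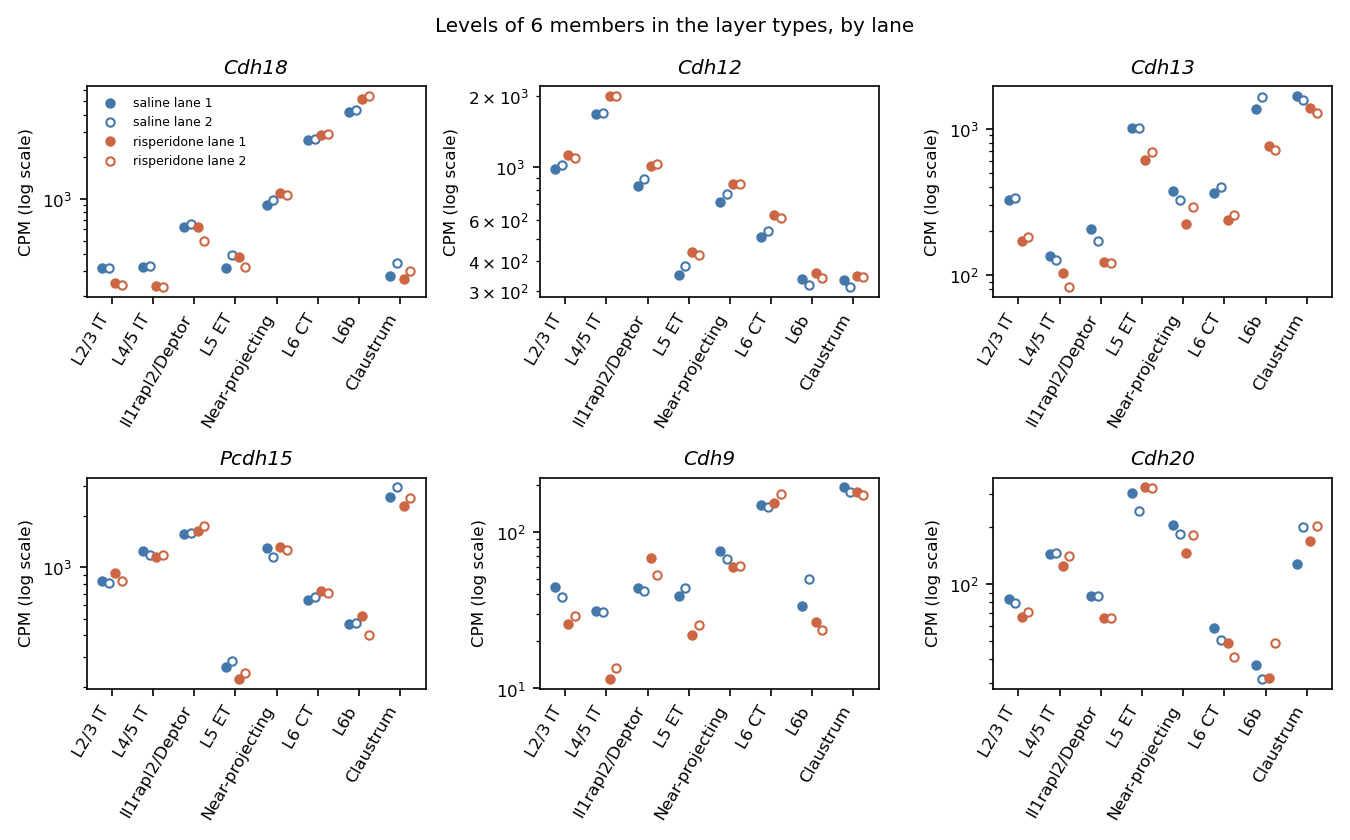
CPM of Cdh18, Cdh12, Cdh13, Pcdh15, Cdh9 and Cdh20 in 8 glutamatergic layer types, 1 point per lane on a log axis (saline blue, risperidone orange, lane 1 filled, lane 2 open). Cdh18 is highest in layer 6b, Cdh12 in layer 4/5, Cdh20 in layer 5 extratelencephalic neurons, and Cdh13, Pcdh15 and Cdh9 in claustrum-type neurons.

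Among interneurons, the Sst class was set apart by 4 members. Cdh13 stood at 2168, 1983, 1846 and 1880 CPM in saline 1, saline 2, risperidone 1 and risperidone 2, against 634 CPM in Pvalb, 507 CPM in Vip and 327 CPM in Lamp5 interneurons. Cdh4, the R-cadherin, was at 618, 689, 589 and 612 CPM, and Vip interneurons followed at 281 CPM. Cdh9 was at 431, 381, 563 and 477 CPM against 101 to 147 CPM in the other 3 interneuron classes. All 4 Sst lanes of each gene lay above every lane of the next class of all 20. The fourth, Cdh7, reached 255 CPM in Sst and 128 CPM in Pvalb interneurons. Pcdh11x was at 559 CPM in Sst interneurons and overlapped with oligodendrocyte precursors at 655 CPM. Lamp5 interneurons had the highest Cdh20 of any neuronal class, 519 CPM, and Pvalb interneurons the highest neuronal Pcdh19, 88.7 CPM. Pcdh20 was measured at 11.1 CPM in Vip interneurons from 79 UMIs and overlapped with oligodendrocyte precursors at 10.3 CPM.

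Glial nuclei carried other members. In oligodendrocytes Pcdh9 made up 18262 CPM (Poisson interval 18121 to 18405), with lanes of 13533, 15213, 22287 and 22117 CPM, and layer 6 corticothalamic neurons came next at 10530 CPM. Cdh20 reached 1179 CPM in oligodendrocytes and 894 CPM in astrocytes, with overlapping lanes. Cdh19, known from Schwann cells and related glia, was measured in 4 classes only: 380 CPM in astrocytes, 325 CPM in oligodendrocytes, 76.5 CPM in precursors and 10.7 CPM in mural cells. The 8 layer types held 2.70 to 6.52 CPM of it. Oligodendrocyte precursors had the highest Pcdh15, at 3325, 3468, 3813 and 4148 CPM, above every claustrum-type lane, and the highest Pcdh17 and Pcdh11x, whose lanes overlapped with the next class. Astrocytes led for Cdh10 at 858 CPM, Cdh2 at 702 CPM and Pcdh10 at 192 CPM, each with lanes that overlapped with the class that followed.

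Vascular and immune classes were small, and several members rest on few molecules there. Cdh5, the VE-cadherin of endothelial junctions, was at 248 CPM in endothelial cells from 105 UMIs and at 136 CPM in fibroblast-like cells, and every neuronal class held at most 0.241 CPM. Cdh1 and Cdh3, the E- and P-cadherins of epithelia, were measured only in fibroblast-like cells, at 79.6 CPM from 31 UMIs and 15.4 CPM from 6 UMIs. Pcdh7 was also highest in fibroblast-like cells, at 2681 CPM (lanes 2028, 3203, 2021 and 3119). Mural cells led for Pcdh19 at 225 CPM from 63 UMIs and Pcdh18 at 60.8 CPM from 17 UMIs, and endothelial cells for Pcdh1 at 84.9 CPM from 36 UMIs. Cdh23 reached 339 CPM in microglia from 42 UMIs, 41 of them in the risperidone lanes. The saline lanes held only 4 and 2 microglia, and vascular cells and microglia were not compared between conditions.

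To compare the 2 pools, the lanes of each condition were summed and given as a log2 ratio of risperidone to saline after TMM scaling. A member was called when its mean reached 10 CPM, the log2 ratio was at least 0.5 in size and the lanes of the 2 conditions did not overlap. CPM in the paragraphs on this comparison are TMM-scaled. In glutamatergic neurons 21 members were tested, of which none was called higher and 3, Cdh13, Cdh22 and Cdh4, were called lower. The same rule called 3.94% of 7185 genes higher and 7.75% lower. The median log2 ratio of the members was −0.03, as was that of all genes tested. In GABAergic neurons Pcdh17 was called higher and Cdh22 lower among 21 members, where 3.76% of 7523 genes were called higher and 5.6% lower, and the medians were −0.06 for members and −0.04 for all genes.

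Counted over the 8 layer types, members gave 27 lower and 4 higher calls in 171 tests, 15.8% and 2.34%, beside 8.67% lower and 5.65% higher among all genes. The 27 lower calls fell on 7 members: 8 on Cdh4, 6 on Cdh13, 5 on Cdh22, 4 on Cdh9, 2 on Pcdh19 and 1 each on Cdh7 and Cdh18. The 4 interneuron classes gave 7 higher and 9 lower calls in 87 tests, 8.05% and 10.3%, beside 6.76% and 7.60% of all genes.

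Class by class, the members' counts stood beside the following shares of all genes tested. Layer 2/3 neurons gave 0 higher and 4 lower calls of 21 members, where 5.18% of genes were called higher and 8.8% lower. Layer 4/5 neurons gave 0 and 5 (4.19% and 6.66% of genes), and the Il1rapl2- and Deptor-high type 0 and 4 (5.05% and 7.58%). Layer 4/5 had the most lower calls of any layer type, 5 against 4 in the next, and the lowest share of lower genes. With RNA of other cells taken out, its Cdh13 ratio turned to 2.78, and Cdh4 (−0.36), Cdh18 (−0.46) and Cdh9 (−3.64) were no longer called. Extratelencephalic neurons gave 0 and 4 of 22 members (6.23% and 11.7%), near-projecting neurons 1 and 2 (4.55% and 7.99%) and layer 6 corticothalamic neurons 0 and 2 (4.3% and 6.97%). Layer 6b gave 3 and 3 (9.44% and 10.2%), and claustrum-type neurons 0 and 3 (6.31% and 9.46%). Layer 6b, a class of 803 nuclei, held 3 of the 4 higher calls among layer types and also had the highest share of higher genes. Its Pcdh9 and Cdh24 calls ended without the saline 2 or the risperidone 2 lane. Pvalb interneurons gave 3 higher and 2 lower (5.99% and 7.23%), Sst interneurons 3 and 2 (7.16% and 9.11%), Vip interneurons 1 and 1 (6.43% and 6.21%) and Lamp5 interneurons 0 and 4 (7.48% and 7.87%). In striatal-type neurons 3 members were called higher and 4 lower (8.33% and 10.9%). Astrocytes gave 1 and 8 (9.47% and 13.9%), oligodendrocyte precursors 3 and 4 (9.96% and 12.4%) and oligodendrocytes 3 and 10 (14.6% and 21.2%). Shares near the background are no result about the members.

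**Figure D3:**
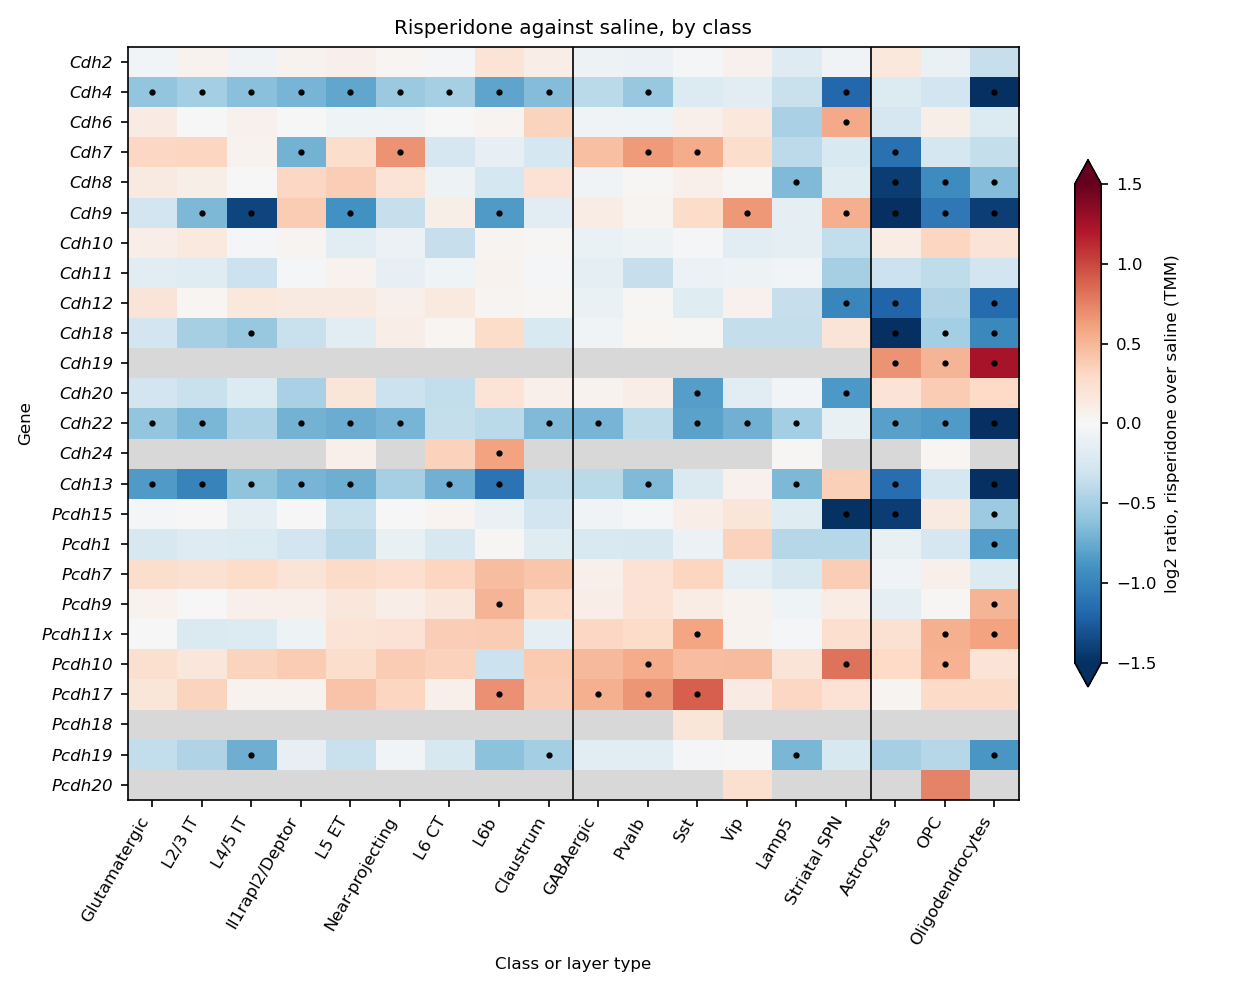
Log2 ratio of risperidone to saline for the tested members (rows) in 18 cell classes (columns), after TMM scaling. Dots mark called values and grey marks values under 10 CPM. Cdh4, Cdh13 and Cdh22 are negative in all 8 layer types and Pcdh17 is positive in all 13 neuronal classes.

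Cdh13 showed the largest difference of the 3 members called in glutamatergic neurons. It was at 479 and 476 CPM in saline and at 267 and 265 CPM in risperidone, a log2 ratio of −0.84 (interval −0.86 to −0.83). Both risperidone lanes lay under both saline lanes, as a call requires. Separate lanes were common in these neurons and do not by themselves set Cdh13 apart. Among female nuclei alone Cdh13 had −0.72, smaller in size than Cdh22 (−0.86) and Cdh4 (−0.81). In layer 2/3 Cdh13 was at 334 and 350 CPM against 164 and 176 CPM, a log2 ratio of −1.01. In layer 6b it was at 1378 and 1695 CPM against 741 and 709 CPM, −1.11 on the same scale. Female nuclei of layer 6b had −1.34 and male nuclei −0.097, which was not called. Extratelencephalic neurons went from 1039 and 1054 CPM to 585 and 670 CPM, a log2 ratio of −0.73. All 8 layer types were negative and 6 were called. Claustrum-type neurons, the layer type with the highest level, had the smallest difference, −0.36, and near-projecting neurons just missed the limit at −0.50. Layer 4/5 was called at −0.60, with −0.44 when the risperidone 2 lane was left out, but RNA of other cells was expected to give 69.6% of its Cdh13 UMIs, and with that RNA taken out the log2 ratio was 2.78.

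Interneurons differed among themselves in Cdh13. It was lower in Pvalb interneurons, at 819 and 810 CPM against 496 and 529 CPM (log2 ratio −0.66, or −0.46 and no call in male nuclei). Lamp5 interneurons had −0.68, or −0.47 and no call with a stricter class gate. Sst interneurons, where Cdh13 is highest, had a log2 ratio of −0.22 (interval −0.26 to −0.17), and Vip interneurons 0.06 (−0.03 to 0.16). Striatal-type neurons had 733 and 761 CPM in saline and 868 and 1026 CPM in risperidone, a log2 ratio of 0.35 that was not called. The Cdh13 call in glutamatergic neurons held under all 12 alternatives computed for it.

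Cdh4 was called lower in all 8 layer types, with log2 ratios from −0.79 in layer 6b to −0.50 in layer 6 corticothalamic neurons. In glutamatergic neurons as a whole it was at 194 and 188 CPM in saline and at 127 CPM in both risperidone lanes, a log2 ratio of −0.59 (interval −0.61 to −0.56). The saline and risperidone lanes did not overlap in any layer type, which the call rule itself requires. Extratelencephalic neurons had 263 and 242 CPM against 144 and 148 CPM (log2 ratio −0.77). Striatal-type neurons had 257 and 327 CPM against 150 and 114 CPM, a log2 ratio of −1.18 where 10.9% of genes were called lower. Pvalb interneurons were called at −0.56, and Sst interneurons, with the highest level, had −0.21. Several of these calls depended on single lanes or on the processing. In layer 6 corticothalamic neurons the log2 ratio was −0.46 without the saline 1 lane, −0.45 without risperidone 2 and 0.32 with RNA of other cells taken out. In layer 6b it was 0.066 with a stricter class gate. In claustrum-type neurons it was −0.37 without saline 1, and in near-projecting neurons −0.49 without risperidone 1 and −0.39 with RNA of other cells taken out. Layer 4/5 had −0.36 with that RNA taken out, and layer 2/3 had −0.48 with the stricter gate and −0.41 with plain CPM. In glutamatergic neurons as a whole plain CPM gave −0.48, which also ended the call, as it did for Cdh22 at −0.49. The Pvalb call ended with the stricter gate (−0.37), plain CPM (−0.45), thinning of each nucleus to 2000 UMIs (−0.41) and in male nuclei (−0.18). The calls in extratelencephalic neurons and in the Il1rapl2- and Deptor-high type held under all 12 alternatives.

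Nuclei were called female or male by Xist and Y-linked UMIs. Of all nuclei, 37.7% and 39.1% were called female in saline against 49.8% and 48.8% in risperidone, and 17.9% to 19.5% male in each lane. Those with neither sign were 28.6% and 23.3% in saline against 13.4% and 9.56% in risperidone, and those with both were 15.8% to 22.1%, so the calls cover only some of the nuclei and a different share in each condition. The Cdh4 ratio was lower in female than in male nuclei in 5 of 8 layer types and in all 4 interneuron classes. Among female nuclei of layer 2/3 Cdh4 was at 315 and 293 CPM in saline and at 155 and 164 CPM in risperidone, a log2 ratio of −0.92 (interval −0.99 to −0.85). Among male nuclei it was at 189 and 205 CPM in saline and at 217 and 206 CPM in risperidone, a log2 ratio of 0.09 (−0.01 to 0.19). Female and male nuclei of layer 6 corticothalamic neurons had log2 ratios of −0.95 and 0.06, and those of Sst interneurons −0.58 and 0.19. The order was the other way in claustrum-type neurons, where female nuclei had −0.57 and male nuclei −1.22, in near-projecting neurons, at −0.29 and −0.97, and in layer 6b, at −1.23 and −2.19. For all glutamatergic nuclei the log2 ratios were −0.81 in female and −0.21 in male nuclei, both with separate lanes. Nuclei of each sex came from 5 animals in 1 pool, and the difference between the sexes was not tested.

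Cdh22, a type II cadherin found mainly in brain, was called lower in 5 layer types and negative in all 8. In extratelencephalic neurons it was at 242 and 243 CPM in saline and at 147 and 143 CPM in risperidone, a log2 ratio of −0.75 (interval −0.85 to −0.65). In layer 2/3 it was at 161 CPM in both saline lanes and at 97.2 and 102 CPM in risperidone (−0.69). The lanes of the conditions lay apart in both types, as a call requires. Sst interneurons showed the same direction, 97.1 and 91.8 CPM against 53.1 and 54.4 CPM (log2 ratio −0.80). Calls in Vip and Lamp5 interneurons rested on levels of at most 42.6 CPM, and the Lamp5 interval reached from −1.11 to 0.10. The Vip ratio was −0.15 without the saline 2 lane and −0.43 with the stricter gate, and the Lamp5 ratio was −0.42 without saline 1, −0.28 without risperidone 1 and −0.024 with the stricter gate, all without a call. The call in GABAergic neurons as a whole, at −0.70, ended with RNA of other cells taken out (−0.45). In glutamatergic neurons female nuclei had a log2 ratio of −0.86 and male nuclei −0.32. Cdh13 had −0.72 and −0.97 in the same order.

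Cdh9 moved in opposite directions in different classes. Vip interneurons had 96.0 and 96.5 CPM in saline and 145 and 155 CPM in risperidone, a log2 ratio of 0.65 (interval 0.44 to 0.86). Female Vip nuclei had 0.73 and male Vip nuclei 0.17, which was not called. In striatal-type neurons Cdh9 was called higher at 0.54, with 0.50 and no call when saline 1 was left out. It was called lower in layer 2/3 (−0.68), extratelencephalic neurons (−0.91), layer 6b (−0.84) and layer 4/5, where it fell from 32.0 and 31.8 CPM to 11.1 and 13.3 CPM (log2 ratio −1.37). These are the 4 layer types with the lowest Cdh9, and RNA of other cells was expected to give 27.7% to 79.7% of its UMIs there. That share was highest in layer 4/5. With RNA of other cells taken out, the log2 ratio was −3.64 in layer 4/5 and −0.47 in layer 2/3, and neither was called any longer. It was −1.09 in extratelencephalic neurons and −0.99 in layer 6b. Without the saline 2 lane layer 6b had −0.46. In the 2 layer types with the highest level, claustrum-type and layer 6 corticothalamic neurons, Cdh9 was not called.

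Pcdh17 was called higher in 3 neuronal classes, as was Cdh7. This delta-2 protocadherin, known from synapses of corticobasal ganglia circuits, was at 79.4 and 93.7 CPM in saline and at 170 and 160 CPM in risperidone in Sst interneurons, a log2 ratio of 0.90 (interval 0.71 to 1.09). In Pvalb interneurons it was at 107 and 123 CPM against 177 and 190 CPM (0.67, or 0.49 and no call with the stricter gate), and in layer 6b at 121 and 134 CPM against 202 and 212 CPM (0.69). Risperidone lanes lay above saline lanes in all 3 classes, as a call requires. The log2 ratio was positive in all 13 neuronal classes, lowest at 0.05 in the Il1rapl2- and Deptor-high type and in layer 4/5, and 0.13 in Vip interneurons. The call in GABAergic neurons as a whole, at 0.54, was 0.47 without the saline 1 lane. Pcdh10, a delta-2 protocadherin known from activity-dependent removal of synapses, was called higher in Pvalb interneurons, at 67.5 and 70.8 CPM against 95.1 and 107 CPM (log2 ratio 0.55, or 0.46 without risperidone 2), and in striatal-type neurons (0.81). Layer 6b was its only negative neuronal class, at −0.32. Pcdh19, the X-linked delta-2 member linked to epilepsy in girls, went the other way: it was called lower in layer 4/5 (−0.74), claustrum-type neurons (−0.51) and Lamp5 interneurons (−0.68) and was negative in all 8 layer types. The claustrum-type ratio was −0.50 without saline 2 and −0.47 without risperidone 1, and neither was called.

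**Figure D4:**
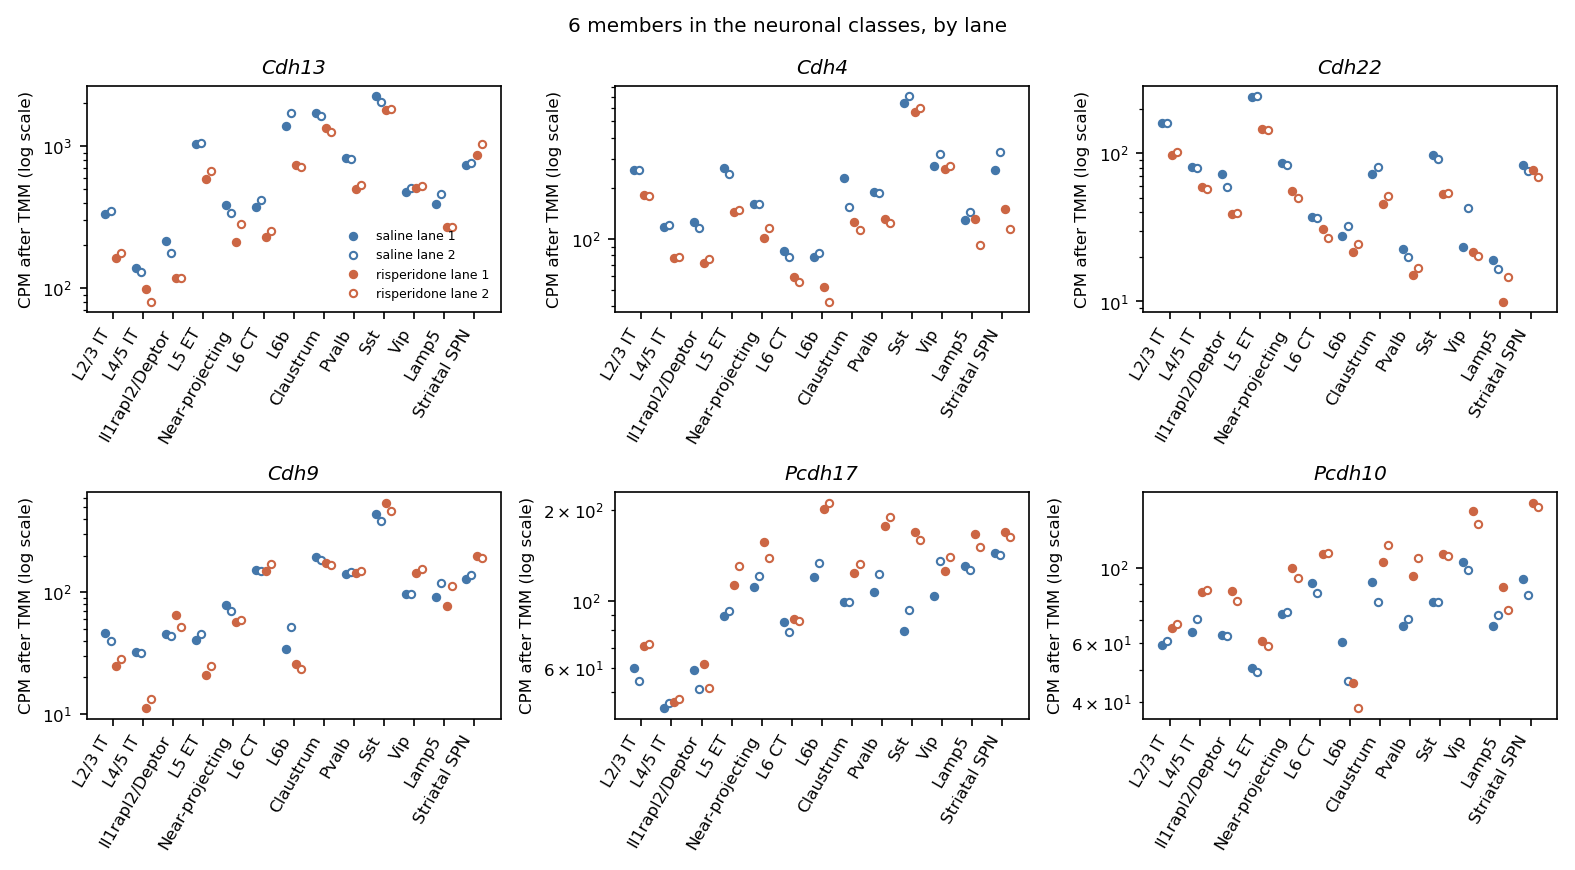
TMM-scaled CPM of Cdh13, Cdh4, Cdh22, Cdh9, Pcdh17 and Pcdh10 in 13 neuronal classes, 1 point per lane (saline blue, risperidone orange, lane 1 filled, lane 2 open). Cdh4 is lower in risperidone in all 8 layer types, and Pcdh17 in Sst interneurons rises from 79.4 and 93.7 to 170 and 160 CPM.

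Cdh7 and Pcdh11x were called higher in interneurons. Cdh7 was at 217 and 190 CPM in saline and at 280 and 306 CPM in risperidone in Sst interneurons, a log2 ratio of 0.55, and at 94.8 and 93.3 CPM against 149 and 145 CPM in Pvalb interneurons (0.64). The Sst ratio was 0.44 without saline 2 and 0.48 without risperidone 2, and the Pvalb ratio 0.48 with the stricter gate. It was also called higher in near-projecting neurons (0.68) and lower in the Il1rapl2- and Deptor-high type (−0.71), where no lane was above 26.8 CPM and the call ended with the stricter gate (−0.45) and with thinning (−0.49). Pcdh11x was at 385 and 465 CPM against 619 and 676 CPM in Sst interneurons, a log2 ratio of 0.59, and higher in oligodendrocyte precursors (0.53) and oligodendrocytes (0.61). Without saline 1 these 3 calls ended, at 0.49, 0.45 and 0.50, and without risperidone 2 precursors had 0.49. With RNA of other cells taken out precursors had 0.11 and oligodendrocytes 0.47. Layer 6b held the other higher calls among layer types, Pcdh9 at 0.51 and Cdh24 at 0.60. Neither was called without the saline 2 or the risperidone 2 lane, where Pcdh9 had 0.50 and 0.48 and Cdh24 had 0.42 and 0.26. Among neuronal classes Cdh18 was called lower only in layer 4/5 (−0.57), its lowest layer type, and that call ended with RNA of other cells taken out (−0.46) and with plain CPM (−0.49). Cdh8 was called lower in Lamp5 interneurons (−0.66) and Cdh20 in Sst interneurons (−0.82), with 78.5% and 66.2% of their UMIs expected from other cells. With that RNA taken out the ratios were −3.26 and −1.49. The Cdh8 ratio was −0.49 without risperidone 2 and −0.33 with the stricter gate. Cdh6 was called higher in striatal-type neurons (0.57), with 0.42 without saline 1 and 0.39 without risperidone 1. No call was made in any layer type for Cdh2, Cdh6, Cdh8, Cdh10, Cdh11, Cdh12, Cdh20, Pcdh1, Pcdh7, Pcdh10, Pcdh11x or Pcdh15. Cdh2 in glutamatergic neurons was at 349 CPM in both saline lanes and at 334 and 342 CPM in risperidone, a log2 ratio of −0.04 (−0.06 to −0.03).

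In glia members gave 22 lower and 7 higher calls in 68 tests over astrocytes, precursors and oligodendrocytes, 32.4% and 10.3%, beside 15.8% and 11.3% of all genes. Of the lower calls, Cdh18 in astrocytes was at 214 and 227 CPM against 77.5 and 74.4 CPM, a log2 ratio of −1.54. RNA of other cells was expected to give 132% of these UMIs, and 160% for Cdh13, 148% for Pcdh15 and 139% for Cdh12 in astrocytes. Values over 100% mean that the estimate takes out more UMIs than were counted, and 15 of the 22 lower calls then had no ratio, so its part in these results was not tested. Of the 29 calls in glia, Cdh19 higher and Pcdh19 lower, both in oligodendrocytes, were also called with that RNA taken out. Others lost the call but not the direction, with Cdh9 at −1.93 in oligodendrocytes and −0.85 in precursors and Pcdh1 at −0.52 in oligodendrocytes, where the ratios before were −1.41, −1.07 and −0.83. Among nuclei with at least 2000 UMIs, a floor common to all lanes, the calls of Cdh8 (−0.65 to −0.04) and Pcdh15 (−0.55 to −0.13) in oligodendrocytes, Cdh22 in astrocytes (−0.82 to −0.41) and Cdh19 in precursors (0.51 to 0.40) ended. Over the same change Cdh13 in oligodendrocytes went from −1.66 to −0.95, Cdh12 there from −1.15 to −0.70 and Cdh9 in precursors from −1.07 to −0.61. Cdh19 is nearly absent from neurons, and RNA of other cells was expected to give 1.59% of its UMIs in astrocytes and 3.06% in oligodendrocytes. It was at 288 and 298 CPM in saline and at 452 and 482 CPM in risperidone in astrocytes, a log2 ratio of 0.67 (interval 0.57 to 0.78). In oligodendrocytes it was at 173 and 206 CPM against 467 and 441 CPM, a log2 ratio of 1.24 (1.05 to 1.43). With RNA of other cells taken out the ratios were 0.43 in astrocytes, no longer called, and 0.71 in oligodendrocytes. Pcdh9 in oligodendrocytes was at 14106 and 15760 CPM against 21283 and 21448 CPM (0.51), but the ratio was 0.12 with RNA of other cells taken out and 0.44 without saline 1. In striatal-type neurons, where RNA of other cells made up 41.7% and 36.7% of saline and 13.5% and 14.3% of risperidone UMIs, Pcdh15 (−1.48), Cdh12 (−0.98) and Cdh20 (−0.87) were called lower, with at least 109% of their UMIs expected from other cells.

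The catenins and other partners of cadherins were listed separately. Of 14, 13 were tested in glutamatergic neurons, where 1 was called higher and none lower. Of the 13 log2 ratios 7 were positive and 6 negative, with a median of 0.15 against −0.03 for all genes, of which 3.94% were called higher. The call was Ctnna3, an alpha-catenin best known from heart junctions. It was at 66.4 and 63.6 CPM in saline and at 160 and 143 CPM in risperidone, a log2 ratio of 1.22 (interval 1.18 to 1.25). It was called higher in all 13 neuronal classes, from 0.90 in claustrum-type to 1.48 in layer 6 corticothalamic neurons. Ctnna2, the main alpha-catenin of neurons, was at 2577 and 2600 CPM against 2296 and 2336 CPM (−0.16), and beta-catenin, Ctnnb1, had a log2 ratio of −0.19. In GABAergic neurons 13 partners were tested, with Ctnna3 called higher at 1.08 and none lower. There 5 log2 ratios were positive and 8 negative, with a median of −0.06. Single interneuron classes gave lower calls: Arvcf (−0.83), Nectin3 (−0.64) and Nectin1 (−0.51) among 12 tested in Sst interneurons, and Arvcf (−0.58) and Vcl (−0.56) among 13 in Lamp5 interneurons, where 9.11% and 7.87% of genes were called lower. Partners were also called lower in striatal-type neurons (3 of 13), extratelencephalic neurons (1 of 13), layer 6b (1 of 14) and oligodendrocytes (1 of 14). In these classes 10.9%, 11.7%, 10.2% and 21.2% of genes were called lower. Vcl, or vinculin, was called higher in Sst interneurons (0.55), where 7.16% of genes were. Counting Ctnna3, 2 partners each were called higher in claustrum-type, layer 4/5, near-projecting and layer 6b neurons and in Pvalb interneurons. The shares of all genes there were 6.31%, 4.19%, 4.55%, 9.44% and 5.99%. Striatal-type neurons gave 3 higher partners (8.33% of genes). Astrocytes gave 2, and precursors and oligodendrocytes 1 each (9.47%, 9.96% and 14.6%).

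Of 12 other genes of the cadherin superfamily, 8 were tested in glutamatergic neurons. None was called higher, and Celsr3 (−0.77) and Celsr2 (−0.52) were called lower, where 7.75% of all genes were. All 8 log2 ratios were negative with a median of −0.29. The alternatives were computed for members only, so no call of a partner or superfamily gene was checked against them. Celsr3, which guides axons, was at 41.5 and 40.7 CPM in saline and at 24.1 and 24.3 CPM in risperidone. The calsyntenins Clstn2 (−0.34) and Clstn3 (−0.33) and the giant cadherin Fat3 (−0.26) had separate lanes but were not called. In GABAergic neurons Celsr3 alone was called lower (−0.71) among 10 tested, where 5.6% of all genes were called lower, and the median was −0.25.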

How the data were processed

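Single-nucleus RNA was counted in 4 Chromium lanes, 2 for each of the saline and risperidone pools. The authors deposited UMI counts per gene and nucleus, made with Cell Ranger 8.0.1 on mm10 per the submitters' processing notes, introns included. Whether counting used strand is not given in the sources used here, so reads of a member and of a gene overlapping it may not be told apart. Members, gene lists and tests were chosen with earlier results of these data known. Nuclei under 500 genes, or with over 5% of UMIs from mitochondrial genes, were dropped. Classes came from a seeded mixture model on marker UMIs (posterior at least 0.9), with limits set after marker levels had been seen. The 15898 nuclei carrying markers of 2 classes were left out as doublet-like, without a doublet caller. In all, 52694 nuclei were placed in 1 of the 20 classes, with the broad glutamatergic and GABAergic sets counted separately from them. The share placed differed with the condition, at 40.4% and 43.5% in the saline lanes against 54.9% and 58.4% in the risperidone lanes. Counts were summed per class and lane (numpy 2.4.6, scipy 1.17.1) and scaled by TMM (edgeR 4.0.16, R 4.3.3). Intervals (95%) are exact Poisson for levels and exact conditional binomial for ratios. With 1 pool per condition no test was run. Every member with at least 10 CPM in a class is named. Partners (Ctnna1, Ctnna2, Ctnna3, Ctnnb1, Ctnnd1, Ctnnd2, Jup, Arvcf, Pkp4, Vcl, Afdn, Nectin1, Nectin3, Adam10) and superfamily genes (Fat1 to Fat4, Dchs1, Dchs2, Celsr1 to Celsr3, Clstn1 to Clstn3) were fixed lists. RNA of other cells was estimated as the median, over broad markers of the other neuronal type, of CPM in the class over CPM in the whole lane, and taken out in the proportions of the lane. The calling rule and intervals were tested on simulated Poisson counts. These held no differences between pools and no RNA of other cells, so they give no error rate for these data. Gene positions are GENCODE GRCm38. Alternatives were leaving out each lane, nuclei with at least 2000 UMIs, a stricter class gate, RNA of other cells taken out, plain CPM, DESeq2 1.42.0 size factors, thinning to 2000 UMIs, female or male nuclei, and other minima.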

Additional observations from a re-analysis of the deposited data

Results flagged for a closer look

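Cdh7 was called in opposite directions in 2 layer types. The log2 ratio was 0.68 in near-projecting neurons and −0.71 in the Il1rapl2- and Deptor-high type, a difference of 1.39. Its calls were higher in 3 neuronal classes and lower in 1, and the lower call ended with the stricter class gate (−0.45) and with thinning (−0.49). Cdh9 was called higher in Vip interneurons (0.65) and lower in layer 4/5 neurons (−1.37), a difference of 2.02, with 2 classes higher and 4 lower. In layer 4/5, 79.7% of its UMIs were expected from RNA of other cells, and the call ended with that RNA taken out. The Vip ratio was 0.17 in male nuclei, without a call.

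Pcdh15 went in opposite directions in the sexes. In female glutamatergic nuclei it stood at 1162 and 1201 TMM-scaled CPM in saline and at 1008 and 973 CPM in risperidone, and in male nuclei at 1071 and 1040 CPM against 1283 and 1309 CPM. The log2 ratios were −0.26 and 0.30, a female minus male difference of −0.56. Cdh18 in GABAergic nuclei had log2 ratios of −0.12 in female and 0.08 in male nuclei, a difference of −0.20. None of these differences was tested, since each condition was 1 pool.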

How the results depend on the processing

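When any 1 lane was left out, the direction of a called log2 ratio could not change, since a call needs separate lanes. Plain CPM and DESeq2 size factors moved every log2 ratio of a class by the same amount, which was smaller than the limit of 0.5. Direction could therefore not change under these settings either. Called log2 ratios of single classes kept their direction in 83 of 83 cases with nuclei of at least 2000 UMIs, thinning or female nuclei only. They kept it in 82 with a stricter class gate and in 76 with male nuclei. Direction was kept more often than the call. Of the 83, the number no longer called was 10 without saline 1, 8 without saline 2, 7 without risperidone 1, 10 without risperidone 2, 5 with nuclei of at least 2000 UMIs, 12 with the stricter gate, 9 with plain CPM, 0 with DESeq2 size factors, 11 with thinning, 7 in female and 24 in male nuclei, beside those that turned. With RNA of other cells taken out, 64 had a ratio that could be computed, of which 43 were still called, 16 were not and 5 turned. The stricter gate turned Cdh4 in layer 6b to 0.066. Taking out RNA of other cells turned Cdh13 in layer 4/5 to 2.78, Cdh4 in layer 6 corticothalamic neurons to 0.32, Cdh22 and Cdh18 in precursors to 0.49 and 0.47, and Cdh8 in oligodendrocytes to 0.96. Male nuclei turned Pcdh19 in claustrum-type neurons to 0.47, Cdh4 in layer 2/3 and layer 6 corticothalamic neurons to 0.089 and 0.061, Cdh19 and Pcdh10 in precursors to −0.16 and −0.079, and Cdh22 and Pcdh15 in oligodendrocytes to 0.90 and 0.026. The cause was not tested.

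The 4 higher calls in layer types became 8 with RNA of other cells taken out, 7 with thinning, 8 in female and 11 in male nuclei, 2 at 50 CPM, 30 at a log2 ratio of 0.25 and 0 at 1. The 27 lower calls became 50 at 0.25 and 3 at 1, and 40 at a minimum of 1 CPM. In interneurons the 7 higher calls became 15 at 0.25 and 0 at 1. Their 9 lower calls became 5 with the stricter gate, 14 in female nuclei, 16 at 1 CPM, 5 at 50 CPM, 17 at 0.25 and 0 at 1. In glia the 7 higher calls became 2 with RNA of other cells taken out, 4 in male nuclei, 12 at 0.25 and 1 at 1, and ranged from 4 to 7 when 1 lane was left out, with 4 without the saline 1 lane. Their 22 lower calls became 2 with RNA of other cells taken out, 14 at 50 CPM and 13 at 1. Of 29 highest classes, 22 were the same with nuclei of at least 2000 UMIs and 26 with RNA of other cells taken out, but the members' levels in those classes moved beyond the SD of the lanes for 15 of 29 with that RNA taken out, 4 with at least 2000 UMIs and 2 with the stricter gate. No paired analysis was possible because lane numbers name technical runs of separate pools and each condition is 1 sample without a test. Layer 6b, where 3 of the 4 higher calls in layer types were made, had 803 nuclei and the highest share of higher genes among layer types (9.44%).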

Other observations

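Levels of the X-linked members were compared between female and male nuclei. In glutamatergic neurons Pcdh11x was at 119 CPM in female and 126 CPM in male nuclei, and was higher in female nuclei in 1 of 4 lanes. Pcdh19 was at 29.7 CPM in both sexes, and in GABAergic neurons at 67.8 CPM in female and 74.2 CPM in male nuclei. Classes differed in order. Pcdh19 was higher in female nuclei in 4 of 4 lanes in extratelencephalic neurons (41.6 against 30.9 CPM), layer 6 corticothalamic neurons (29.4 against 26.8 CPM) and astrocytes (26.1 against 25.6 CPM), and in 0 of 4 lanes in oligodendrocyte precursors (37.3 against 61.5 CPM). Pcdh11x in astrocytes was at 248 CPM in female and 218 CPM in male nuclei, higher in female nuclei in 3 of 4 lanes.

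Genes that overlap a member on the other strand were mostly higher in risperidone. Of 23 overlapping genes in the matrices, 20 lie on the opposite strand and 13 of these had at least 100 UMIs. The ratio of risperidone to saline CPM over all nuclei was above 1 for 12 of the 13, and the log2 ratio was at least 1 for 9. Among all 19056 genes with at least 100 UMIs the ratio was above 1 for 62.1% and the log2 ratio at least 1 for 8.34%. Among 3742 long non-coding genes, to which 11 of the 13 belong, these shares were 66.1% and 26.2%. Gm15398, opposite Pcdh15, had 1339 UMIs in saline and 8889 in risperidone, and 1700027H10Rik, opposite Pcdh10, had 13 and 293. Gm49191, opposite Cdh18, had 30 and 249 UMIs, while Cdh18 itself was not called in glutamatergic neurons. A gene that overlaps Cdh8 on the same strand, Gm15680, rose from 364 to 2134 UMIs.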
